A study of Mus musculus with 11 samples.

Results

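The subunits of oxidative phosphorylation were followed across neurons of 3 first-order sensory nuclei of the newborn mouse thalamus. Members were the protein-coding genes whose symbols carry the family names of the respiratory chain and of ATP synthase (Nduf with a letter a, b, c, s or v and a number, Sdha to Sdhd, Uqcr, Cox4 to Cox8, Atp5, and the mt-Nd, mt-Co, mt-Atp and mt-Cytb genes). This gave 98 genes of the 54752 gene identifiers in the count tables, of which 85 are encoded in the nucleus and 13 in the mitochondrial genome. The nuclear members comprised 35 genes of complex I, 4 of complex II, 8 of complex III, 20 of complex IV and 18 of complex V. The 13 mitochondrial members comprised 7 genes of complex I, 1 of complex III, 3 of complex IV and 2 of complex V. Ndufa4 and Ndufa4l2 were placed with complex IV, with which their products associate. The name rule also took in Atp5s, whose product is not a structural subunit, and a second gene identifier called Atp5o.

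Oxidative phosphorylation takes place in the inner mitochondrial membrane. Complexes I to IV pass electrons from NADH and succinate to oxygen, complexes I, III and IV pump protons as they do so, and complex V uses the proton gradient to make ATP. Most subunits are encoded by nuclear genes and imported, while a small set of core subunits is encoded by the circular mitochondrial genome, so that complexes I, III, IV and V draw on both genomes and complex II on the nuclear genome alone. Neurons rely on this pathway to restore ion gradients after electrical activity, and several complex IV subunits exist as alternative isoforms with tissue-restricted use.

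The libraries came from neurons of the dorsolateral geniculate nucleus (dLG, the visual relay, n = 4), the ventral posteromedial nucleus (VPM, the somatosensory relay of the face, n = 4) and the ventral division of the medial geniculate nucleus (MGv, the auditory relay, n = 3) at the day of birth, P0. All groups shared the strain ICR/CD-1 and the genotype Gbx2CreER-IRES-EGFP/+::R26lsl-tdTomato/+, in which a tamoxifen-dependent Cre under the control of the thalamic gene Gbx2 switches on tdTomato. Red fluorescent cells were sorted, and each library pooled tissue from 4 brains, so the labelled cells are those with Gbx2 activity or history rather than every neuron of a nucleus. In such bulk libraries fewer cells of a type and less RNA per cell cannot be told apart.

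Total counts ranged from 10175653 to 23559130 per library. The defining markers followed the label: 8 of 8 pan-neuronal genes were well above the filter, with summed levels of 9780 to 13700 CPM (read counts scaled to a common library size, with TMM factors), whereas the summed microglial, endothelial, GABAergic and cortical marker levels were at most 13.2, 6.24, 4.85 and 5.15 CPM. The 7 astrocyte marker genes summed to more than any of those lists, 57.0 to 192 CPM over the 11 libraries. The 6 thalamic neuron genes summed to 1690 to 3090 CPM, and genes of the oligodendrocyte lineage to 12.5 to 30.2 CPM in dLG, 32.8 to 43.4 CPM in VPM and 74.9 to 85.9 CPM in MGv. Hemoglobin and other erythroid genes reached 514.0 CPM in dLG replicate 3 and at most 11.7 CPM in every other library. Genes induced by tissue dissociation summed to 283 to 381 CPM in VPM, against 480 to 736 CPM in dLG and 612 to 832 CPM in MGv, and their part in the results below was not tested. VPM replicate 3 stood apart in the subunits themselves, as described further on, and results that rest on it are given with and without it. It was also 1 of the 3 libraries in which the chaperone gene Hspa8 was low (3.05 CPM in dLG replicate 2, 4.09 in VPM replicate 3 and 5.56 in MGv replicate 1, against 159.3 to 580.7 CPM elsewhere).

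The mitochondrially encoded subunits were examined first, because the count tables did not represent them evenly. Of the 13 genes, 7 passed the filter on low counts (mt-Nd1, mt-Nd2, mt-Nd4, mt-Nd5, mt-Nd6, mt-Cytb and mt-Co1). The remaining 6 genes, mt-Co2 and mt-Co3 of complex IV, mt-Atp6 and mt-Atp8 of complex V, and mt-Nd3 and mt-Nd4l of complex I, had between 0 and 2 counts in each of the 11 libraries. Complex V was therefore without any measured mitochondrial subunit, and complex IV was represented by mt-Co1, its catalytic core, alone. Summed over the 11 libraries, mt-Nd1 had 1571196 counts and mt-Cytb 1004367 counts, while mt-Co2, mt-Co3 and mt-Atp8 had 0.

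The missing genes coincided with sequence that recurs in other annotated transcripts, with mt-Atp8 as an exception within this search. Each subunit was cut into all stretches of 50 bases, the length of the sequenced reads, and each stretch was looked up in the annotated transcripts of other genes on either strand. For mt-Co2, mt-Co3, mt-Atp6, mt-Nd4l and mt-Nd3, 100%, 99.9%, 99.5%, 98.8% and 98.0% of the stretches recurred in a pseudogene transcript on chromosome 1, where Gm28661, Gm28437, Gm10925, Gm10222 and Gm28438 lie side by side. The share was 62.2% for mt-Nd4 and 51.1% for mt-Co1, 8.19% for mt-Nd2 and 7.61% for mt-Nd5, and 0% for mt-Nd1, mt-Nd6 and mt-Cytb. mt-Atp8 had 0% of its stretches in annotated transcripts other than its own, and 21.1% of its length overlaps mt-Atp6. It lies between mt-Co2 and the rest of mt-Atp6. Their copies on chromosome 1 are Gm28661, which starts at 24614885, and Gm10925, which ends at 24614651. Only annotated transcripts were searched, so whether the bases between these copies hold a copy of mt-Atp8 was not tested. Stretches of the mitochondrial genome are printed here to show this, with the build GRCm38 and the strand, and no base is capitalised because each copy matched over its full length:
mt-Co2, chrM:7330-7379, plus strand: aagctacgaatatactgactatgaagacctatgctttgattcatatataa
Gm28661, chr1:24615199-24615248, minus strand: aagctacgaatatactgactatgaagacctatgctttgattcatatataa
mt-Co1, chrM:6394-6443, plus strand: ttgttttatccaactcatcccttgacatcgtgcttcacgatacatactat
Gm29216, chr1:24616135-24616184, minus strand: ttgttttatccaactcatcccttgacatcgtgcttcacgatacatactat
mt-Nd1, chrM:3204-3253, plus strand, without a copy: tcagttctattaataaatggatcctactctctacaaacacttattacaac
Over the whole of Gm28661, 681 bases aligned to mt-Co2 with 0 differing bases, and Gm29216 differed from mt-Co1 at 6 of 492 bases. The 7 pseudogenes on chromosome 1 together held 8643 counts over all 11 libraries. Most of these lay in Gm28437 (3381), Gm28438 (2804) and Gm10925 (1847), the copies of mt-Co3, mt-Nd3 and mt-Atp6, which themselves had 0, 1 and 4 counts. How reads with several alignments were treated during counting was not stated, and its part in the absent counts was not tested.

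**Figure D1:**
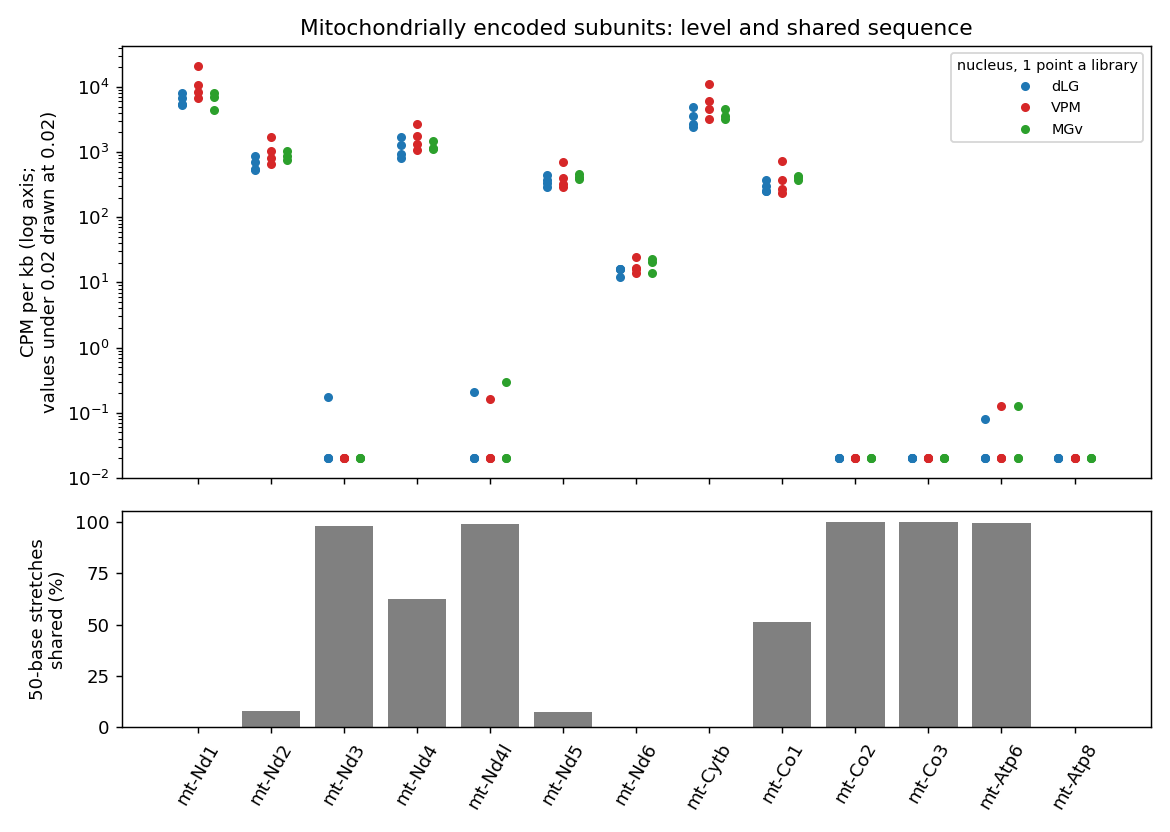
Upper panel, level of each of the 13 mitochondrially encoded subunits in CPM per kb of exon on a log axis, 1 point a library, with values under 0.02 drawn at 0.02. Lower panel, percent of 50-base stretches that recur in annotated transcripts of other genes. Of the 6 genes at or near the floor of the upper panel, 5 have 98.0% or more of their stretches shared, and mt-Atp8 has 0%. Sequence outside annotated transcripts was not searched.

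Among the 7 measured mitochondrial subunits the levels per kb of exon spanned a wide range. Averaged over the 11 libraries, mt-Nd1 stood at 8376 CPM per kb and mt-Cytb, the single mitochondrial subunit of complex III, at 4525 CPM per kb. mt-Nd4 followed at 1405 and mt-Nd2 at 863.7 CPM per kb, then mt-Nd5 at 403.7 and mt-Co1 at 363.0 CPM per kb. mt-Nd6, the one subunit transcribed from the other strand, was lowest at 17.2 CPM per kb. The levels of mt-Nd4 and mt-Co1 are uncertain because over 50% of their sequence is shared.

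Between nuclei no mitochondrial subunit passed the test in any contrast (edgeR quasi-likelihood test, adjusted p under 0.1 over 15907 genes). Among all genes tested 10.7% passed for dLG over VPM, 16.1% for dLG over MGv and 19.0% for VPM over MGv, beside 0 of the 7 genes in each contrast. At an unadjusted p under 0.05 the numbers were 3, 0 and 1 of 7, and DESeq2 called 3, 0 and 1. Without VPM replicate 3 the unadjusted edgeR numbers were 0, 1 and 1. The shares of all genes under these rules are not given, so the counts are not read as results about the mitochondrial subunits. mt-Nd1 was measured at 5094, 5303, 7669 and 6532 CPM in dLG, at 6578, 7873, 20350 and 10240 CPM in VPM, and at 6659, 7661 and 4216 CPM in MGv. The groups overlapped, and the highest value by far was that of VPM replicate 3. Its log2 fold change was -0.87 ± 0.30 (SE) for dLG over VPM (edgeR adjusted p = 0.107) and 0.87 ± 0.33 for VPM over MGv (adjusted p = 0.1048). mt-Cytb was measured at 3089, 2729, 5567 and 4116 CPM in dLG, at 3746, 5218, 12630 and 6914 CPM in VPM, and at 4140, 5155 and 3638 CPM in MGv. It too overlapped between nuclei and was highest in VPM replicate 3.

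The median log2 fold change of the 7 genes was -0.53 for dLG over VPM, -0.22 for dLG over MGv and 0.26 for VPM over MGv. Without VPM replicate 3 these medians were -0.22, -0.22 and -0.08, and the count of genes past the threshold remained 0 in each contrast. The last of the 3 medians therefore changed sign with 1 library. mt-Nd2, mt-Nd4, mt-Nd5 and mt-Co1 ranged from 544.9 to 1788, from 1122 to 3718, from 528.3 to 1289 and from 369.2 to 1113 CPM, with VPM replicate 3 at the top of each range. mt-Nd6 ranged from 6.33 CPM in dLG replicate 1 to 12.6 CPM in VPM replicate 3.

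The nuclear subunits were abundant in all 3 nuclei. They took 3.30% ± 0.388 (SD, n = 4) of all counts in dLG, 3.92% ± 1.11 (n = 4) in VPM and 3.07% ± 0.266 (n = 3) in MGv. Without VPM replicate 3 the VPM share was 3.38% ± 0.314 (n = 3). The mitochondrial subunits took 1.39% ± 0.334, 2.18% ± 0.952 and 1.46% ± 0.294 in dLG, VPM and MGv. Without VPM replicate 3 the VPM value was 1.75% ± 0.471 (n = 3). In effect these shares come from the 7 measured genes of the 13, so they cannot be set against the nuclear shares. Of the 85 nuclear members 80 passed the filter. The other 5 were Cox4i2, Cox8b, Cox8c, Ndufa4l2 and the second identifier called Atp5o, which lies entirely within exons of other genes.

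Within complexes the measured subunits were far from equal. In complex I the median over 35 genes was 204.7 CPM per kb, from 19.4 for Ndufs1, which carries iron-sulfur clusters, to 1278 for Ndufa1, a small accessory subunit. In complex II Sdhd, a membrane anchor, stood at 277.1 CPM per kb, Sdhb, the iron-sulfur subunit, at 218.1, Sdhc, the second anchor, at 88.1, and the flavoprotein Sdha at 55.4. In complex III Uqcr10, a small accessory subunit, was highest at 881.6 CPM per kb and the core protein gene Uqcrc1 was lowest at 68.3. In complex IV the range ran from 9.54 CPM per kb for Cox7b2 to 2577 for Cox6a1, and in complex V from 0.327 for Atp5g2 to 829.3 for Atp5k. Exon length covers every annotated isoform, so that genes with long alternative exons are placed low on this scale.

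Some nuclear members, among them several of the lowest, also share sequence with other genes. In 6 tested genes at least 50% of the 50-base stretches of the main transcript recurred in other genes: Atp5g2 (100%), Atp5l (84.9%), Atp5h (66.6%), Atp5g1 (66.0%), Cox7c (53.0%) and Atp5o (50.3%). For the first 5 the main copy is a processed pseudogene, and for Atp5o it is an antisense gene at the same place. The median level of these 6 genes was 9.48 CPM per kb (range 0.327 to 248.9). For the other 74 tested genes it was 230.1 CPM per kb (range 9.54 to 2577), so the ranges overlapped. Atp5g1 and Atp5g2 encode the ring subunit through which protons pass, and their values are uncertain.

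The promoters of the nuclear subunits were searched for short motifs. RefSeq promoters (250 bases before to 50 bases after the start, build GRCm38.p6) were found for 68 member genes. The letters GCATGCGC, from the site of nuclear respiratory factor 1 (NRF1), occurred on either strand in 10 of the 68 genes (14.7%), against 3.93% of 17491 protein-coding genes. CCGGAAG, the core of an ETS site such as that of GABP, occurred in 16 genes (23.5%), against 12.9%, and AAGATGGC, from the YY1 site, in 10 genes (14.7%), against 3.57%. NRF1, GABP and YY1 are known regulators of nuclear genes for mitochondria. Bases upstream of the RefSeq start of Cox6a1 and of Atp5k, the members of complexes IV and V with the highest level per kb, are printed with the NRF1 letters, which here overlap on both strands, and the ETS letters in capitals. GENCODE places the start of both genes upstream of the RefSeq start, so the last 23 printed bases of Cox6a1 and the last 30 of Atp5k lie within the GENCODE gene. The Cox6a1 stretch holds the 250 bases up to the RefSeq start, and the Atp5k stretch of 231 bases stops short of it:
Cox6a1, chr5:115348959-115349208, minus strand: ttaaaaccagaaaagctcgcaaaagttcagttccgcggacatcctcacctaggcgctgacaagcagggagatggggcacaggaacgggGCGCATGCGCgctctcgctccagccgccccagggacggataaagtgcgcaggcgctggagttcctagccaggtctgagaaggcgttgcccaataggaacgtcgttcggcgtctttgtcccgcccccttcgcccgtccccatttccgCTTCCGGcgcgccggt
Atp5k, chr5:108434419-108434649, minus strand: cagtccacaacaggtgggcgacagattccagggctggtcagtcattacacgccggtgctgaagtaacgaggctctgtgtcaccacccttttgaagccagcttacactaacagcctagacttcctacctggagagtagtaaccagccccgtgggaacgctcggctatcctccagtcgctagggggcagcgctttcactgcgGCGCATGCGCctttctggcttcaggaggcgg
Cox6a1 holds both motifs and Atp5k the first; in Atp5k an ETS match lies after the start and is not printed. These matches are a description of the letters, and binding was not measured.

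The comparison of nuclei for the nuclear subunits began with the spread between libraries, since it set what could be compared. For each tested gene, a library's log2 level was taken minus the mean of the other libraries of its nucleus. VPM replicate 3 was the highest of the 11 libraries for 73 of the 80 nuclear members and for all 7 mitochondrial members, against 18.3% of all genes tested. Within VPM, 78 of 80 nuclear members were above the other libraries, with a median difference of 0.88, and the median of the mitochondrial members was 1.07. Conversely, VPM replicate 4 and dLG replicate 4 had 0 of 80 members above the other libraries of their nuclei, with medians of -0.54 and -0.35. Smaller common shifts were present in other libraries, with 73 members above in dLG replicate 3, 70 in MGv replicate 2 and 65 in dLG replicate 2, and 7 in VPM replicate 1, 12 in VPM replicate 2 and 14 in MGv replicate 3.

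Other gene groups moved with this shift. In VPM replicate 3 the median difference was 0.56 for mitochondrial ribosomal proteins, 0.42 for genes with up to 2365 bases of exon, -0.34 for genes with 6453 bases or more, and -0.07 over all genes tested. The nuclear members are short, with a median exon length of 1578 bases against 4042 bases for all genes tested. The TMM factor of this library was 0.854, and those of the others lay between 0.982 and 1.06. Nuclear members took 5.54% of its counts, against 2.78% to 3.67% in the other 10 libraries, and the mitochondrial genome took 6.997%, against 2.88% to 4.97%. The part of gene length or RNA quality in this shift was not tested.

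**Figure D2:**
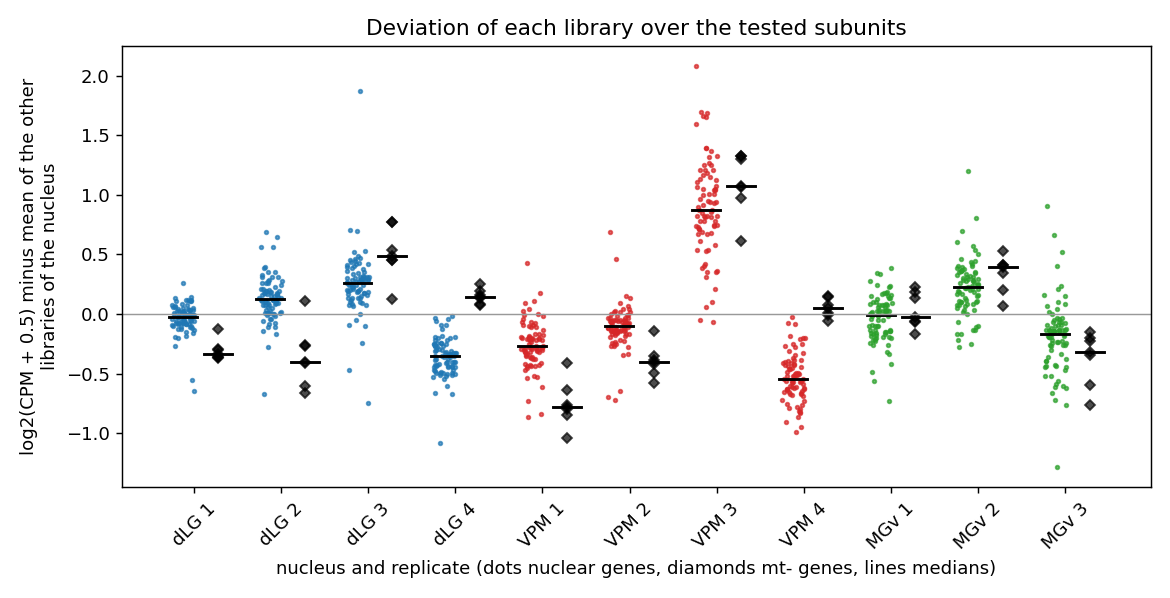
Deviation of each library, log2(CPM + 0.5) minus the mean of the other libraries of the same nucleus, for the 80 nuclear (dots) and 7 mitochondrial (diamonds) subunits that passed the filter; short lines are medians. VPM replicate 3 lies above the other VPM libraries for nearly all genes, and VPM replicate 4 and dLG replicate 4 lie below for the nuclear ones.

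Between VPM and MGv, 11 of 80 nuclear members passed the test, all of them higher in VPM. This is 13.8% of the members, against 19.0% of all genes tested in either direction and 10.4% in the direction of VPM. The median log2 fold change of the members was 0.46 and 75 of 80 were positive, while the median over all genes was near 0. For 11 members every VPM library was above every MGv library, which was also the case for 13.1% of all genes tested. Without VPM replicate 3 the median fell to 0.16, and 8 members passed, 5 higher in VPM and 3 higher in MGv, against 20.4% of all genes tested. The sign of the median was thus kept without that library, and its size was not.

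**Figure D3:**
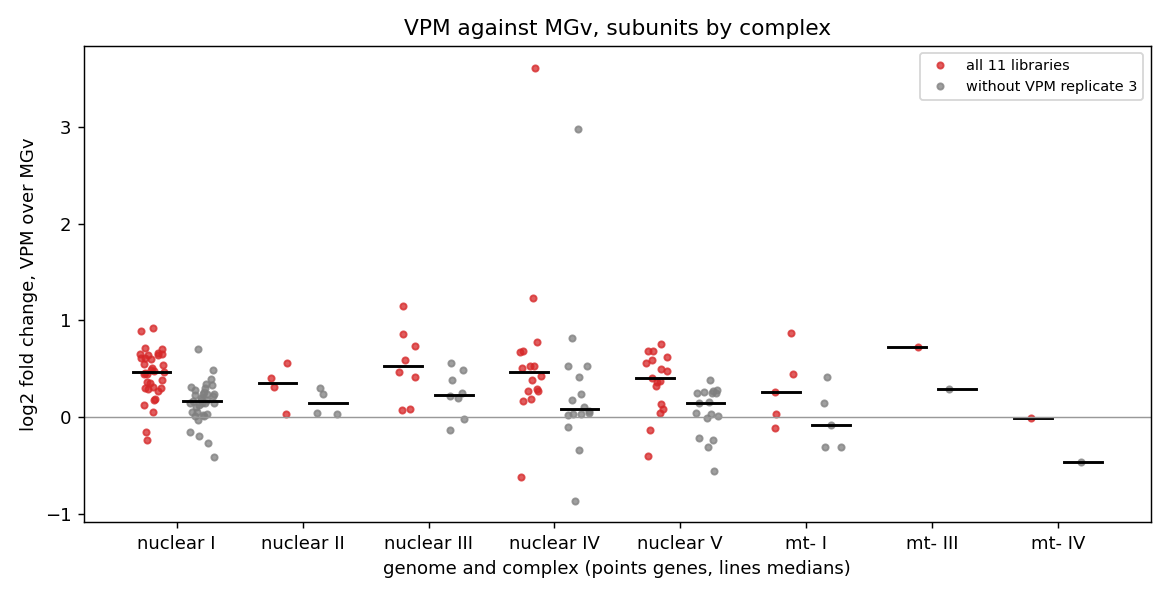
Log2 fold change, VPM over MGv, of the tested nuclear and mitochondrial subunits by complex, with all 11 libraries (red) and without VPM replicate 3 (grey); points are genes and short lines are medians. Medians of the nuclear complexes lie between 0.35 and 0.53 with all libraries and between 0.09 and 0.23 without that library, and the highest point in both is Cox6a2.

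By complex, the VPM to MGv calls were 4 of 35 in complex I (Ndufa1, Ndufa13, Ndufa3 and Ndufs6) and 1 of 4 in complex II (Sdhd). They were 3 of 8 in complex III (Uqcr10, Uqcr11 and Uqcrfs1), 3 of 16 in complex IV (Cox5a, Cox6a2 and Cox6c) and 0 of 17 in complex V. Over all genes tested 19.0% passed, and 10.4% as higher in VPM. Without VPM replicate 3 the calls were 3, 0, 1, 3 and 1 for complexes I to V, against 20.4% of all genes. In complex V 6 genes had an unadjusted p under 0.05 with all libraries and 1 without that library. The share of all genes under this rule is not given, so these 2 counts are not read as a result about complex V. The median log2 fold change of complex V with all libraries was 0.41. Ndufa1 (chrX:37187588-37191163, minus strand), the most abundant complex I gene per kb, was measured at 556.3, 652.8, 944.2 and 509.6 CPM in VPM, at 347.0, 435.0 and 271.4 CPM in MGv, and at 522.5, 558.0, 675.0 and 419.5 CPM in dLG. Every VPM library exceeded every MGv library, and dLG overlapped with both. The log2 fold change of VPM over MGv was 0.92 ± 0.23 (SE; edgeR adjusted p = 0.01734), and 0.70 (adjusted p = 0.0267) without VPM replicate 3.

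Uqcr10 (chr11:4701973-4704342, minus strand), the small complex III subunit, was the complex III gene with the largest estimate. It was measured at 489.1, 555.0, 1466 and 424.0 CPM in VPM, at 331.5, 381.4 and 281.5 CPM in MGv, and at 406.5, 489.4, 512.8 and 326.8 CPM in dLG. VPM and MGv did not overlap, and replicate 3 was far above the other VPM libraries. The VPM over MGv log2 fold change was 1.15 ± 0.36 (SE; edgeR adjusted p = 0.04966), and 0.56 (adjusted p = 0.0485) without that library. The call was lost without MGv replicate 1 (adjusted p = 0.119) or 3 (adjusted p = 0.165).

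Cox5a (chr9:57521274-57532426, plus strand), a nuclear subunit of complex IV, was measured at 1163, 1275, 1979 and 969.2 CPM in VPM, at 749.8, 851.6 and 750.4 CPM in MGv, and at 1006, 1024, 1086 and 813.8 CPM in dLG. Again VPM lay above MGv in every library, and dLG lay between them with overlap. Its log2 fold change was 0.78 ± 0.20 (SE; edgeR adjusted p = 0.02246) for VPM over MGv. Exons of other genes cover 12.8% of its exon length, so a part of its counts is uncertain. Ndufa13, which is also known as the cell death regulator GRIM-19, differed by 0.64 ± 0.16 (adjusted p = 0.02014), with 405.4 to 636.1 CPM in VPM and 284.5 to 336.6 CPM in MGv. Its exon length overlaps Tssk6 by 29.98%. Ndufa1, Ndufa13, Cox5a, Uqcr10 and Cox6a2 were the 5 members that passed as higher in VPM both with and without VPM replicate 3.

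The other 6 genes were lost without it. Uqcr11, Cox6c, Uqcrfs1 (the Rieske iron-sulfur protein), Ndufa3, Ndufs6 and Sdhd had log2 fold changes of 0.85, 0.68, 0.59, 0.65, 0.61 and 0.56 with all libraries (edgeR adjusted p from 0.06183 to 0.09879), and of 0.49, 0.42, 0.39, 0.40, 0.33 and 0.31 without VPM replicate 3 (adjusted p from 0.1013 to 0.1848). They were also lost without MGv replicate 1 (adjusted p from 0.128 to 0.221) or 3 (adjusted p from 0.188 to 0.3), where 4 members passed. The 3 genes that passed as higher in MGv only in the smaller fit were Cox6b2, Ndufs3 and Atp5d, at -0.86, -0.42 and -0.31; Ndufs3 and Atp5d are named because the count is small.

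Between dLG and VPM, 2 of 80 nuclear members passed, Cox6a2 and Ndufs5, both higher in VPM. This is 2.5%, against 10.7% of all genes tested and 5.74% in the direction of VPM. All the same 76 of 80 members had a lower estimate in dLG, with a median log2 fold change of -0.34, and without VPM replicate 3 the median was -0.07. In the smaller fit 3 members passed (Cox6a2 and Ndufs5 higher in VPM, Cox7a2l higher in dLG), against 14.0% of all genes tested. Ndufs5 (chr4:123712710-123718202, minus strand), an accessory subunit of complex I, was measured at 44.3, 45.3, 47.0 and 35.7 CPM in dLG, at 63.5, 67.3, 70.0 and 51.7 CPM in VPM, and at 51.6, 64.2 and 51.4 CPM in MGv. The dLG and VPM libraries did not overlap, and replicate 3 was close to the others for this gene. The log2 fold change of dLG over VPM was -0.55 ± 0.14 (SE; edgeR adjusted p = 0.03152), and the call was lost narrowly without dLG replicate 4. Since 41.2% of the stretches of its main transcript recur in a processed pseudogene, its level is uncertain.

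For dLG over MGv, 2 of 80 nuclear members passed, Cox6a2 and Ndufa1, both higher in dLG. This is 2.5%, against 16.1% of all genes tested and 8.61% in the direction of dLG. The median log2 fold change was 0.09, with 56 of 80 members positive. Ndufa1 differed by 0.63 ± 0.23 (SE; edgeR adjusted p = 0.09535). This call was missed in 12 of 27 alternative settings, 7 of them fits without 1 library (dLG replicate 1, 2 or 3, MGv replicate 1 or 3, or VPM replicate 1 or 2), with an adjusted p of up to 0.317. VPM replicate 3 is not part of either group but entered the shared estimate of the spread, and without it 9 members passed, 7 higher in dLG and 2 higher in MGv, against 20.9% of all genes tested. The 3 contrasts share their libraries pairwise and are not independent of each other.

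The member with the largest estimate in each contrast was Cox6a2 (ENSMUSG00000030785, chr7:128205435-128206387, minus strand), the isoform of complex IV subunit VIa that is known for its use in heart and skeletal muscle. It was measured at 1.28, 1.84 and 2.43 CPM in MGv, at 8.95, 10.2, 7.36 and 7.45 CPM in dLG, and at 15.3, 13.4, 46.6 and 14.8 CPM in VPM. No nucleus overlapped with another, in the order MGv, dLG, VPM, and replicate 3 was again far above the other VPM libraries. The log2 fold changes were 3.61 ± 0.48 (SE; edgeR adjusted p = 0.0002048, 12.2-fold) for VPM over MGv, 2.21 ± 0.46 (adjusted p = 0.005681, 4.62-fold) for dLG over MGv, and -1.40 ± 0.37 (adjusted p = 0.03192, 2.65-fold) for dLG over VPM. Without VPM replicate 3 they were 2.98, 2.21 and -0.76, and each still passed. All 3 contrasts also passed in each of the 27 alternative settings tried. Itgad, a neighbouring gene that overlaps 10.3% of its exon length, was at 1.86 CPM in VPM replicate 3. It was at most 0.716 CPM in every other library and at 0 CPM in each MGv library. At these low levels it also passed as higher in VPM than in MGv (log2 fold change 6.49, edgeR adjusted p = 0.0988). The part of Itgad reads in the Cox6a2 counts was not tested.

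Cox6a1, the widely used isoform of the same subunit and the most abundant nuclear member per kb, did not follow this pattern. It ranged from 1575 to 2041 CPM in dLG, from 1447 to 2835 CPM in VPM and from 1521 to 1735 CPM in MGv, with overlap between all nuclei, and no contrast passed (edgeR adjusted p from 0.4004 to 0.7936). Per kb, Cox6a2 made up 1.09% ± 0.403 (SD, n = 4) of the sum of both isoforms in VPM, 0.487% ± 0.0864 (n = 4) in dLG and 0.119% ± 0.0423 (n = 3) in MGv. Cox6a2 was thus a minor isoform in every library, at most 1.67% of the pair.

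**Figure D4:**
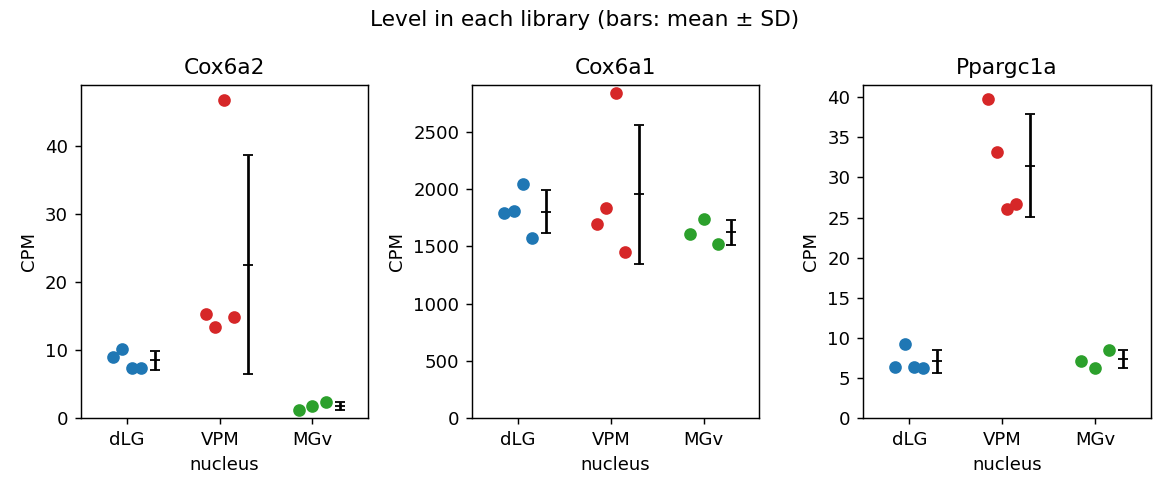
CPM of Cox6a2, its widely used counterpart Cox6a1 and the regulator Ppargc1a in each library of the 3 nuclei, with mean ± SD beside the points; axes start at 0. The nuclei are apart for Cox6a2 and overlap for Cox6a1, and VPM is apart from dLG and MGv for Ppargc1a.

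The other alternative isoforms of complex IV were low or absent, and none of them passed a contrast with all 11 libraries. Cox6b2, known from testis, lay between 9.36 and 24.5 CPM, next to 1015 to 2982 CPM for its counterpart Cox6b1. Cox7a1, the heart and muscle form, lay between 2.93 and 9.59 CPM, next to 569.9 to 1736 CPM for Cox7a2. Cox7b2 lay between 1.17 and 11.8 CPM, next to 258.9 to 1494 CPM for Cox7b. Per kb these isoforms reached at most 1.32%, 1.93% and 4.91% of the sum with their counterparts.

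The isoforms Cox4i2, Cox8b, Cox8c and Ndufa4l2 did not reach the filter. Cox8b had 0 counts in all 11 libraries. The level of Cox4i2 was at most 0.244, that of Cox8c at most 0.194 and that of Ndufa4l2 at most 0.545 CPM. Their counterparts were measured at 1068 to 2952 CPM (Cox4i1), 409.3 to 645.0 CPM (Cox8a) and 666.7 to 2753 CPM (Ndufa4), with the highest value of each in VPM replicate 3.

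Complex II is also an enzyme of the citric acid cycle. Sdha was measured at 211.5 to 238.4 CPM in dLG, 224.6 to 253.3 CPM in VPM and 210.0 to 246.1 CPM in MGv, and it was the member of this complex in which VPM replicate 3 (228.1 CPM) did not stand out. Sdhb, Sdhc and Sdhd were highest in that library, at 816.3, 397.1 and 595.6 CPM. The summed share of complex II was 0.138% ± 0.00832 (SD, n = 4) of counts in dLG, 0.140% ± 0.0228 (n = 4) in VPM and 0.118% ± 0.0123 (n = 3) in MGv. Without VPM replicate 3 the VPM share was 0.129% ± 0.00584 (n = 3).

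Genes that build, supply or regulate the complexes were then counted from lists taken from general knowledge. The counts stand against 10.7%, 16.1% and 19.0% of all genes tested for dLG over VPM, dLG over MGv and VPM over MGv, and no list was tested as a set. Of 44 tested assembly factors 2 passed for dLG over VPM, 3 for dLG over MGv and 6 for VPM over MGv, the order used for the counts below, with 5 of the last 6 higher in VPM. These shares of 4.55%, 6.82% and 13.6% were each below the share of all genes. Cox11, which delivers copper to complex IV, had the smallest adjusted p of the assembly factors and was measured at 96.3 to 152.9 CPM in dLG, 69.4 to 89.1 CPM in VPM and 34.6 to 48.5 CPM in MGv, without overlap. Its log2 fold changes were 1.48 ± 0.18 (SE; edgeR adjusted p = 0.0001225) for dLG over MGv, 0.66 ± 0.16 (adjusted p = 0.02281) for dLG over VPM and 0.82 ± 0.18 (adjusted p = 0.007994) for VPM over MGv. The order of nuclei was therefore not that of Cox6a2. The copper chaperone gene Cox17 did have the order MGv, dLG, VPM, with 7.39 to 10.4, 12.1 to 16.2 and 16.7 to 26.4 CPM. Its log2 fold change was 1.30 ± 0.22 for VPM over MGv (edgeR adjusted p = 0.001626). The steps between neighbours were weaker, at 0.68 for dLG over MGv (adjusted p = 0.0606) and -0.62 for dLG over VPM (adjusted p = 0.0747). They were missed in 8 and 9 of 27 alternative settings. Coa7, another complex IV assembly factor, was lower in VPM than in MGv by -0.50 ± 0.12 (adjusted p = 0.01731).

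Of 8 genes for mitochondrial carriers and porins, through which metabolites are exchanged, 1 (12.5%), 0 and 3 (37.5%) passed, each higher in VPM. Slc25a5, an ADP/ATP carrier, was at 277.3 to 428.6 CPM in VPM, 135.3 to 216.0 CPM in dLG and 131.6 to 197.2 CPM in MGv; VPM did not overlap with the others, and the log2 fold changes were -0.93 ± 0.18 for dLG over VPM (edgeR adjusted p = 0.005066) and 1.06 ± 0.19 for VPM over MGv (adjusted p = 0.0028). Slc25a4, the more abundant ADP/ATP carrier, and Mpc1, part of the mitochondrial pyruvate carrier, were higher in VPM than in MGv by 0.57 ± 0.15 (adjusted p = 0.02045) and 1.29 ± 0.36 (adjusted p = 0.03255), the latter lost without MGv replicate 1 (adjusted p = 0.12) or 3 (adjusted p = 0.115). Of 7 electron carriers and further subunits only Ndufab1, a complex I subunit outside the name rule, passed, in VPM over MGv (0.64 ± 0.22, adjusted p = 0.07772), and it was lost without VPM replicate 2 (adjusted p = 0.12) or 3 (adjusted p = 0.151) and without MGv replicate 1 (adjusted p = 0.224) or 3 (adjusted p = 0.187).

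In the pathways that feed the chain, 2, 2 and 3 of 18 genes of pyruvate dehydrogenase and the citric acid cycle passed (11.1%, 11.1% and 16.7%), near or below the share of all genes. Idh2, which makes mitochondrial NADPH, was higher in dLG than in MGv by 1.05 ± 0.21 (edgeR adjusted p = 0.004767). Pdha1, the catalytic subunit of pyruvate dehydrogenase, and Dld, its dihydrolipoamide dehydrogenase, were higher in VPM than in MGv by 0.55 ± 0.14 (adjusted p = 0.01885) and 0.50 ± 0.14 (adjusted p = 0.03026), and Dld was lost without MGv replicate 3 (adjusted p = 0.119).

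Of 16 glycolytic genes 5 passed between dLG and VPM, all higher in VPM, 6 between dLG and MGv, with 5 higher in MGv, and 2 between VPM and MGv, both higher in VPM. The shares were 31.2% and 37.5% in the contrasts with dLG, above those of all genes, and 12.5% in the last, below it. Aldoa was at 869.0 to 1114 CPM in VPM, 531.0 to 630.7 CPM in dLG and 512.7 to 600.9 CPM in MGv, with log2 fold changes of -0.78 ± 0.12 for dLG over VPM (edgeR adjusted p = 0.001044) and 0.84 ± 0.13 for VPM over MGv (adjusted p = 0.0008041). For Aldoa and for Eno1 (208.7 to 266.9 CPM in VPM, 119.8 to 172.2 CPM in dLG) VPM replicate 3 was the highest VPM library by a small margin. Aldoc was lower in dLG (2.10 to 11.8 CPM) than in VPM (27.9 to 46.6 CPM) and MGv (16.6 to 19.5 CPM). Aldoc is also used as an astrocyte marker. The 7 astrocyte marker genes, Aldoc included, summed to 57.0 to 140 CPM in dLG, 86.8 to 151 CPM in VPM and 76.2 to 192 CPM in MGv. Gfap and Aqp4 were at most 1.58 CPM in any library, so nearly all of each sum came from other genes of the list. Of the 6 tested, 1 (16.7%) passed for dLG over VPM, higher in VPM. In each contrast with MGv 2 (33.3%) passed, both higher in MGv. The part of astrocyte transcripts in the Aldoc difference was not tested.

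Among 11 regulators of mitochondrial biogenesis 1, 2 and 2 passed (9.09%, 18.2% and 18.2%), about the share of all genes. Ppargc1a, which encodes the coactivator PGC-1α, was measured at 39.8, 33.2, 26.1 and 26.7 CPM in VPM, at 6.39, 9.28, 6.43 and 6.30 CPM in dLG, and at 7.14, 6.32 and 8.55 CPM in MGv. VPM lay far above both other nuclei in each library, dLG and MGv overlapped, and VPM replicate 3 was the lowest of its nucleus. The log2 fold changes were -2.14 ± 0.21 for dLG over VPM (edgeR adjusted p = 2.74e-05) and 2.10 ± 0.23 for VPM over MGv (adjusted p = 5.475e-05). Esrra, a nuclear receptor that works with PGC-1α, was at 8.89 to 11.7 CPM in VPM, 7.36 to 9.56 CPM in dLG and 3.95 to 5.35 CPM in MGv, and was higher than in MGv both in VPM (1.17 ± 0.22, adjusted p = 0.003246) and in dLG (0.79 ± 0.22, adjusted p = 0.02877), the latter lost without MGv replicate 2 (adjusted p = 0.11). Gabpa, a subunit of GABP, was higher in dLG than in MGv by 1.01 ± 0.25 (adjusted p = 0.01547); its exons overlap those of the member Atp5j.

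Of 15 genes for upkeep and transcription of the mitochondrial genome 0, 1 and 4 passed (0%, 6.67% and 26.7%), the last being the one above the share of all genes. Without VPM replicate 3 the counts were 1, 2 and 2 (6.67%, 13.3% and 13.3%). Each was then below the share of all genes in the same fit (14.0%, 20.9% and 20.4%). The transcription elongation factor gene Tefm was higher in VPM than in MGv by 1.05 ± 0.27 (edgeR adjusted p = 0.02187), Mterf4, a factor for mitochondrial ribosome assembly, was lower by -0.67 ± 0.16 (adjusted p = 0.01538), and Polg2, the accessory subunit of the mitochondrial DNA polymerase, was higher in dLG than in MGv by 0.75 ± 0.22 (adjusted p = 0.04547), which was lost without MGv replicate 2 (adjusted p = 0.124) or 3 (adjusted p = 0.17). Of 77 tested mitochondrial ribosomal proteins 0, 2 and 7 passed (0%, 2.6% and 9.09%), and without VPM replicate 3 the counts were 1, 5 and 3 (1.3%, 6.49% and 3.9%), each below the share of all genes in the same fit.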

How the data were processed

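Neurons of 3 nuclei were profiled in 11 libraries by RNA sequencing with single reads of 50 bases after SMARTer amplification. The authors trimmed reads with Trim Galore 0.6.1 and cutadapt 2.3, aligned them with STAR 2.7.0d to mm10 (GRCm38) and counted them per Ensembl gene with featureCounts (Subread 1.6.4). The deposited values are raw read counts, not normalized or pooled; strand setting and treatment of multiple alignments are not given in the sources used here. The members, gene lists and low-Hspa8 libraries were chosen with earlier results of these data known.

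Symbols, exon lengths and positions (1-based) came from GENCODE M21 of the same build, with 54723 of 54752 identifiers found. Shared sequence was measured against its transcripts, since no genome was used here. edgeR 4.0.16 (R 4.3.3) was run on the counts of all 11 libraries in a single model with 3 group means: filterByExpr kept 15907 of 33170 genes with a count, scaling was by TMM, and the quasi-likelihood test used Benjamini-Hochberg adjustment over those genes and a threshold of 0.1, as the study used with DESeq2. SEs were obtained from the log2 fold change and the F statistic (its absolute value over root F); the common biological coefficient of variation was 28.2%. CPM values are TMM-scaled. Depth was 10175653 to 23559130 counts, and the 3 MGv libraries are the shallowest group. The labels do not say which brains a replicate number stands for, so p-values measure the spread between these pools. Within a nucleus the libraries differed by a chi-square of 12.8 to 115 per degree of freedom, where counting error alone gives about 1, and none was treated as a duplicate.

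On simulated counts for dLG against VPM (15907 genes, 200 changed) the test recovered 82% of 2-fold and 100% of 4-fold changes, with 12.5% false among its calls. Alternatives were DESeq2 1.42.0, limma 3.58.1 with voom, other scalings and filters, a replicate block, GC and length offsets, thinning, and leaving out libraries. Genes named are all mitochondrial members, nuclear members past the threshold, the highest per kb in each complex, complex II, the isoforms with their counterparts, up to 3 genes of each related list, and Hspa8; Cox7a2l, Ndufs3 and Atp5d were added after their values were seen, as were members named for extreme levels or shared sequence.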

Additional observations from a re-analysis of the deposited data

Results flagged for a closer look

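Of 114 groups of 4 libraries examined, 8 held 1 library farther from the rest than Dixon's critical value allows; chance alone gives about 1 group in 20. VPM replicate 3 accounted for 6 of the 8. In it Cox6a2 was at 46.64 CPM (13.37 to 15.29 in the other VPM libraries), Uqcr10 at 1466 CPM (424.0 to 555.0), Sdhd at 595.6 CPM (317.2 to 355.5), Cox4i1 at 2952 CPM (1139 to 1386), Cox7b at 1494 CPM (424.5 to 528.9) and Sdhb at 816.3 CPM (417.0 to 479.7). All 6 lie above the other libraries of the nucleus.

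The remaining 2 were in dLG. mt-Nd6 was at 6.332 CPM in dLG replicate 1, against 8.292 to 8.399 CPM in the other dLG libraries. Ppargc1a was at 9.28 CPM in dLG replicate 2, against 6.299 to 6.429 CPM, and this value is still below every VPM library.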

How the results depend on the processing

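Counts of members past the threshold are given for dLG over VPM first, dLG over MGv second and VPM over MGv last; with all 11 libraries they were 2, 2 and 11 nuclear and 0, 0 and 0 mitochondrial. The share of all genes tested that passed also moved with the fit. It was 10.7%, 16.1% and 19.0% with all 11 libraries, and 16.1%, 19.8% and 19.0% without the 3 low Hspa8 libraries. It is not set beside each count below, so the counts are not read as results about the members. Member counts that moved by more than 1.5 times were as follows. For nuclear members DESeq2 gave 7 in the first and 19 in the last contrast, limma voom 14 and 8 in the first 2, no count filter 26 in the first and 42 in the last, GC and length offsets 5 and 7 in the last 2, the covariate for the low Hspa8 libraries 5, 4 and 23, leaving out those 3 libraries 4 and 6 in the last 2, an adjusted p under 0.05 1 and 5 in the last 2, and fits of only the nuclei compared 6 and 6 in the last 2. dLG against MGv gave 1 with DESeq2 size factors and with scaling without the mitochondrial genome, and 4 with total counts. The replicate block gave 4 in the first and 28 in the last contrast, and 20, 6 and 19 together with GC and length offsets. Same-numbered libraries correlated between -0.203 and 0.483 (10 pairs), and 4 of 11 libraries correlated best with their own number, so the numbers were not taken to pair the libraries. The 0.483 was that of dLG replicate 4 with VPM replicate 4, against at most 0.268 for pairs with unlike numbers. Both had 0 nuclear members above the other libraries of their nuclei, and MGv has no replicate 4. Whether these libraries share a source was not tested. For mitochondrial members the counts were 3 and 1 with DESeq2 and 5 and 3 without a count filter in the first and last contrasts, 1 with voom and with the Hspa8 covariate in the last, 2 and 2 with GC and length offsets in the first 2, 4, 4 and 1 with the block and those offsets, and 1 for dLG against MGv with only the nuclei compared. Leaving out 1 library at a time gave 2 to 16, 1 to 9 and 4 to 35 nuclear and 0 to 3, 0 and 0 to 2 mitochondrial members; the highest nuclear counts, 16 and 35, came without VPM replicate 4, the 9 without VPM replicate 3, and the lowest of the last contrast, 4, without MGv replicate 1 or 3. Over the fits without 1 library the median log2 fold changes ranged from -0.46 to -0.07, from -0.003 to 0.18 and from 0.16 to 0.61 for nuclear members, and from -0.75 to -0.22, from -0.38 to -0.13 and from -0.08 to 0.46 for mitochondrial members; the second nuclear range changes sign without dLG replicate 3 or MGv replicate 3, and the last mitochondrial range without VPM replicate 3. The causes were not tested. Of 46 named gene contrasts past the threshold, none changed sign in 27 alternatives, 26 passed in all of them and 20 missed in at least 1. Of 2970 refits of the 110 named contrasts that had not passed, 133 changed sign and 170 passed. The 6 mitochondrial genes and 5 nuclear members under the count filter were not compared.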
